A study of Mus musculus with 4 samples.

Results

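Genes that carry a cell through mitosis were compared between normal and leukaemic mouse T-lineage cells. The 55 genes are a list of names, written with earlier results of these data known, that covers mitotic entry, the spindle and its checkpoint, the kinetochore, the mitotic kinesins, anaphase, chromosome condensation and cytokinesis. Every probe set that the platform annotation assigns to 1 of these genes was taken, also where it names further genes, which gave 122 of 45037 probe sets. A probe set is the group of short probes that the array reads for a transcript. For 54 of the 55 genes there was a probe set with that symbol alone, and the gene is represented below by the brightest of these over the 4 arrays. Ccnb1, cyclin B1, had no probe set under its name and was not analysed here. Of the 122 probe sets, 115 lay above the background level on at least 1 array and 101 on all 4, and of the 54 genes 53 did so on all 4. The exception was Kif15, which was above background on 1 of the 4 arrays, a tumour array. Several genes share a process but were measured on the same 4 arrays, so they are not replicates of the condition.

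Mitosis is driven by cyclin A and cyclin B bound to the kinase Cdk1, and is steered by the Aurora and Polo kinases. Kinetochores are protein assemblies on the centromere that hold the spindle microtubules, and unattached kinetochores feed a checkpoint that holds back the anaphase-promoting complex (APC/C). Once released, the APC/C marks securin and cyclin B for destruction, the sister chromatids part and the cell divides. Most of these genes are switched on together late in the cell cycle, through promoters that often carry a CCAAT box and a cell cycle genes homology region (CHR), and the DREAM and MuvB complexes bind at the CHR. In the thymus, CD4+CD8+ double-positive (DP) cells arise from a burst of divisions, and many of them then leave the cell cycle.

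RNA of DP cells was measured on 4 arrays, 2 per group. The normal group held DP cells of normal thymus with the genotype WT, and the tumour group held DP cells of peripheral tumours described as thymoma, with over-expressed Notch1-IC and the genotype T-ALL. Notch1-IC is the intracellular, active part of the Notch1 receptor, and T-ALL is T-cell acute lymphoblastic leukaemia. The background given for all 4 samples is WT C57/BLACK6. A sample type label describes all 4 as tumour cells, against the titles, sources and genotypes of the 2 normal samples. The labels state neither the age of the animals, nor the promoter and the cells in which Notch1-IC was expressed, nor whether the 2 samples of a group came from separate animals. The p-values therefore measure only the spread between these arrays, and part of that spread may be technical. Tissue site and genotype differ together and cannot be told apart.

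Over the 10772 probe sets whose log2 intensity averaged 7 or more, arrays of the normal pair had an r of 0.990, those of the tumour pair 0.991, and pairs across groups 0.819 to 0.826. Notch1 lay at log2 levels of 10.11 and 10.10 on the normal arrays and 12.81 and 12.65 on the tumour arrays, a log2 difference of 2.62 ± 0.073 (SE, limma, adjusted p = 4.48e-08), and its second probe set differed by 2.84. Of 12 DP thymocyte markers measured, 11 were lower and 0 higher in tumour, with a summed intensity of 70912 to 75065 against 31945 to 33044, and none was at background in either group. Early progenitor markers rose in 5 of 10 genes, from a sum of 1249 on both normal arrays to between 11333 and 11538. In this list Kit and Erg lay at background on both tumour arrays, and Erg and Hhex on both normal arrays. The list also holds Notch3 and Dtx1, genes of the Notch pathway, so its rise was not read as a cell identity. Macrophage markers were higher in 9 of 13 (128.5 to 169.4 against 1969 to 2040), neutrophil markers in 8 of 12 (215 to 276 against 2208 to 2248), dendritic markers in 4 of 9 (329 to 333 against 997 to 1249) and NK markers in 4 of 8 (1179 to 1215 against 5517 to 5523). Of these, both normal arrays lay at background for 6 macrophage, 5 neutrophil, 1 dendritic and 3 NK markers, among them C1qa, Ltf, Xcr1 and Ncr1. The NK sum was mostly Gzma, with a mean log2 level of 11.16 over the 4 arrays and a log2 difference of 2.28. It therefore does not describe the NK markers as a set. B cell markers were higher in 1 and lower in 3 of 9, erythroid markers higher in 1 of 8, and stromal markers higher in 1 and lower in 2 of 12. The part of a changed cell mixture in the results on mitosis genes was not tested. In bulk samples, fewer cells in mitosis and less RNA per cell cannot be told apart.

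Mitosis genes did not move as a block. Mki67, Cenpe, Pttg1 and Cenpf were higher in tumour DP cells, while Kif20a, Nuf2, Kif11, Ube2c, Aurka and Ccnb2 were lower. The Pttg1 call rests on 1 of its 3 probe sets, and neither of the others was called. Of 54 genes, 11 were higher (20.4%) and 15 lower (27.8%) at an adjusted p under 0.05 (limma, Benjamini-Hochberg over all probe sets), and 28 passed in neither direction. Over all 18193 genes, 16.3% were higher and 11.7% lower. Bright genes are called more often, since their replicate spread is smaller, and 50 of the 54 lay at a mean log2 level of at least 7. Among these, 11 were higher (22%) and 15 lower (30%), against 30.6% and 26.9% of all 6364 genes at that level, so the share of lower calls was close to the background. Without the _s_at and _x_at classes of probe sets, described below, 5 (10.4%) and 19 (39.6%) of 48 genes at that level were higher and lower, against 28% and 29.5% of all genes at that level under the same setting. With a gene's probe sets averaged, 2 were higher and 10 lower of 54, against 10.3% and 9.7% of all genes. At a mean log2 level of at least 7 under that setting, 2 (5.56%) were higher and 9 (25%) lower of 36, against 23.9% and 29.3% of all genes. The share of lower calls was then below that of all genes. The median log2 difference over the 54 genes was -0.07, against 0.09 over all genes, and 33 of the 54 (61.1%) lay below 0, against 46.2% of all genes. Counted by probe set, 14 of 122 were higher and 31 lower, against 11.3% and 11.5% of all probe sets. At that level, the probe set counts were 13 (17.8%) and 26 (35.6%) of 73, against 28.8% and 29.6%.

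Both arrays of a group lay beyond both arrays of the other in 15 genes on the higher side and 23 on the lower side, against 33.7% and 26.4% of all genes. At a mean log2 level of at least 7 these were 14 (28%) and 23 (46%) of 50, against 43.9% and 39.2% of all genes at that level. Of the 26 called genes, 18 kept the call when each array was left out in turn, 9 in each direction. Among the 9 higher ones, Incenp, Cdca8, Kif2c and Cdc20 also had a probe set called lower. No gene among the 9 lower ones had a probe set called higher. Further readings of the same arrays bear on all counts. Scaling the arrays to spiked-in bacterial transcripts lowered every log2 difference by 0.60. It moved the median of all genes to -0.51 and that of the mitosis genes to -0.67, and gave 3 genes higher (Mki67, Pttg1 and Cenpe) and 35 lower. The share of all genes called under this scaling was not counted, so these counts do not set mitosis genes apart. By the labels' protocols, labelling started from a set mass of total RNA, not from a set number of cells. The shift of 0.60 therefore cannot report the RNA content of the cells, and its cause was not tested. With limma's default variance prior, none of the 122 probe sets passed. With that prior and 1 probe set per gene, which called 4.17% of all genes higher and 2.2% lower, Mki67 (adjusted p = 0.0400) and Cenpe (0.0453) were called higher and Kif20a (0.0475) lower.

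**Figure D1:**
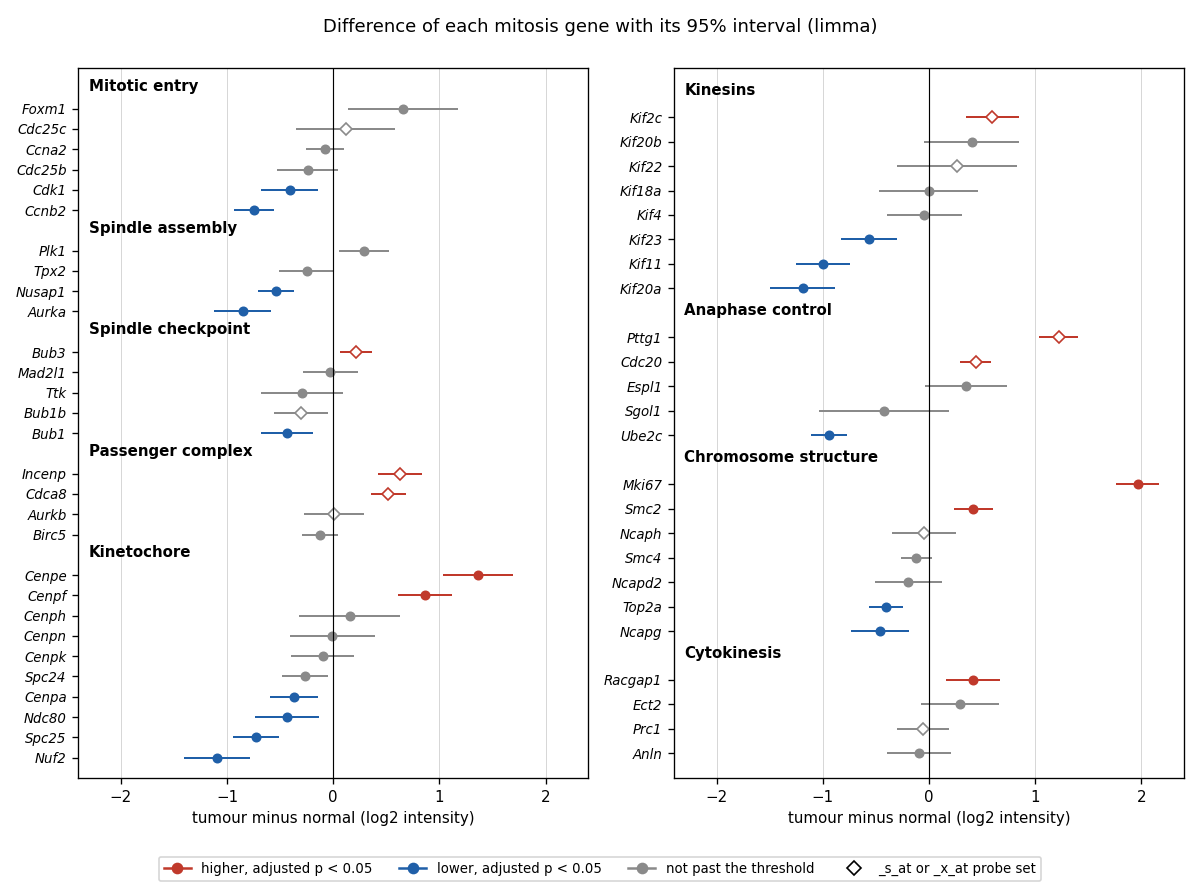
Log2 difference (tumour minus normal DP) of the brightest probe set of each mitosis gene, with its 95% interval from the limma fit, grouped by function; n = 2 arrays per group, and Kif15, which lay at background on 3 of the 4 arrays, is left out. The intervals of Mki67, Cenpe and Pttg1 lie farthest to the right and those of Kif20a, Nuf2 and Kif11 farthest to the left, while scaling to spiked-in controls moves every point left by 0.60.

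The promoters of 5 genes are shown because they stand on opposite sides of the comparison, Mki67 and Cenpe higher in tumour and Ccnb2, Kif11 and Ube2c lower, although most carry the same late cell cycle elements. Each runs 5′ to 3′ on the gene's strand, from 250 bases before the annotated start to 12 bases after it (RefSeq, GRCm38.p6). Capitals mark the CHR core TTTGAA or its reverse TTCAAA, and the CCAAT box CCAAT or its reverse ATTGG. The windows are chr7:135716368-135716629 for Mki67, on the minus strand, chr3:135212313-135212574 for Cenpe, on the plus strand, chr9:70421543-70421804 for Ccnb2, on the minus strand, chr19:37376132-37376393 for Kif11, on the plus strand, chr2:164769679-164769940 for Ube2c, on the plus strand.
Mki67: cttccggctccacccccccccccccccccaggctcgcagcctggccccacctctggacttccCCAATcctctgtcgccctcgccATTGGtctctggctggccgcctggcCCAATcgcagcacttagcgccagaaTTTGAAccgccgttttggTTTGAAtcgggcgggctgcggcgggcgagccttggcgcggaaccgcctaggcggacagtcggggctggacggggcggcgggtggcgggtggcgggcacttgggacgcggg
Cenpe: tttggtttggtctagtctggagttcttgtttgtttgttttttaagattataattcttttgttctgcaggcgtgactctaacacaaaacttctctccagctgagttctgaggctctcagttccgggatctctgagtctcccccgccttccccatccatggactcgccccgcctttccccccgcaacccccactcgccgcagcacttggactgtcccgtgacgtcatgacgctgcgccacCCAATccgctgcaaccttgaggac
Ccnb2: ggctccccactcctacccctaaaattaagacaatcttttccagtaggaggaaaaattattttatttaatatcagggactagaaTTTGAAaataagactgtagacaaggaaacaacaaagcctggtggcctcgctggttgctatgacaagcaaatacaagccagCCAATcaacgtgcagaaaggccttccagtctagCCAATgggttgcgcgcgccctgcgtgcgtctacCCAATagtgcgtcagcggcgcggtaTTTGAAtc
Kif11: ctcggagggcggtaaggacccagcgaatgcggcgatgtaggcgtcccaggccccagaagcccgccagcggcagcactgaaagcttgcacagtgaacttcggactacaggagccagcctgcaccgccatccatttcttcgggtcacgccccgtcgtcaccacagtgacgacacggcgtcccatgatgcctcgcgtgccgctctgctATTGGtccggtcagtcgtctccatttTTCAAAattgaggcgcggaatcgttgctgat
Ube2c: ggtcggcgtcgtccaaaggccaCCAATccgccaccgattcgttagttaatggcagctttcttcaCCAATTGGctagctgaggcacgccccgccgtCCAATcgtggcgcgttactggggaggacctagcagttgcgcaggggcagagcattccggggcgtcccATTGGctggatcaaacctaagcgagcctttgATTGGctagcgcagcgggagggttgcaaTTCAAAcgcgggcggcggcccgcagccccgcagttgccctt

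In the Mki67 window the CHR core began 116 and 98 bases before the start, behind CCAAT boxes at 188, 166 (reverse) and 141 bases. Kif11 held a reverse CHR core 19 bases before the start and a reverse CCAAT box at 45 bases, and Ube2c a reverse CHR core at 29 bases with 6 CCAAT matches upstream, of which 1 pair overlaps as CCAATTGG. Ccnb2 held CCAAT boxes at 87, 54 and 21 bases before the start, with a CHR core at 167 bases before and another 5 bases after it. Cenpe held a CCAAT box at 12 bases and no TTTGAA in these letters. A promoter entry was found for 46 of the 55 genes, with 51 windows of 300 bases (250 before to 50 after the start). No entry was matched for Aurkb, Ccna2, Cdc25c, Foxm1, Incenp, Kif20a, Smc4, Spc24 and Tpx2.

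Searched on both strands, TTTGAA was in 35 of the 51 windows (68.6%), against 17.9% of all 32851 promoter windows of that length. CCAAT was in 39 (76.5%, against 37.4%), and both stood in the same window in 30 (58.8%, against 7.0%). The E2F site, searched as GCGGGAA, was in 4 (7.8%, against 4.6%). By the call on the brightest probe set, TTTGAA was in 9 of 11 windows of higher genes, 11 of 14 of lower genes and 15 of 25 of those in neither class, and CCAAT in 9, 11 and 18. Several of these calls are not settled, since 4 genes with a window had probe sets called both ways (Cdca8, Kif2c, Cdc20 and Racgap1) and others lost the call without 1 array. With only the genes free of both, TTTGAA was in 3 of 5 windows of higher and 6 of 8 of lower genes, and CCAAT in 4 and 6. With the 4 genes counted as lower instead, TTTGAA was in 5 of 7 and 15 of 18, and CCAAT in 6 and 14. These recounts were chosen after seeing the data, and with so few windows the directions were not compared further. A match is a description of letters and was not tested as a binding site.

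**Figure D2:**
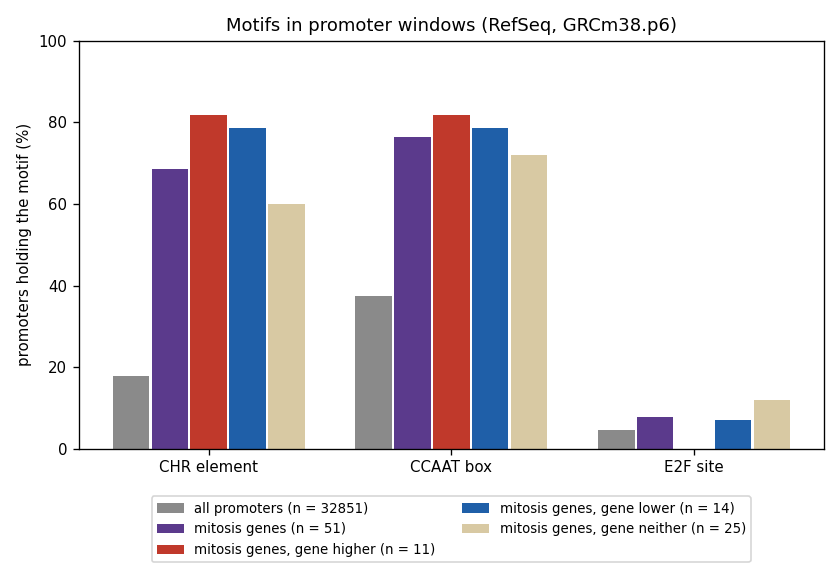
Share of promoter windows (percent, 300 bases each) that hold the CHR core, the CCAAT box or the E2F site, for all promoters, all mitosis genes and the mitosis genes split by their call in tumour DP. The CHR core is in 68.6% of mitosis gene windows against 17.9% of all; the bars by call rest on few windows (11 higher, 14 lower and 25 neither), and some of those calls are not settled.

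Counts by function, here and below, stand beside 16.3% higher and 11.7% lower of all genes. At a mean log2 level of at least 7 these shares were 30.6% and 26.9%. With 4 to 10 genes in each function, the counts were not read as traits of a process. Among the 6 genes of mitotic entry, 2 were lower and 0 higher, with a median log2 difference of -0.16. Ccnb2, cyclin B2, a partner of Cdk1, had log2 levels of 10.95 and 10.84 on the normal arrays and 10.14 on both tumour arrays. It fell by 0.75 ± 0.079 (SE, adjusted p = 9.70e-05, limma), and the groups did not overlap. Cdk1, the mitotic kinase itself, lay at 10.48 and 10.31 in normal and at 10.15 and 9.83 in tumour, a log2 difference of -0.41 ± 0.12 (adjusted p = 0.0290). That call was lost without normal replicate 1 (-0.33, adjusted p = 0.227), normal replicate 2 (-0.50, 0.0682) or tumour replicate 2 (-0.25, 0.241). Ccna2, cyclin A2, was read by 2 bright probe sets that differed from each other. The brighter lay at 11.14 and 11.02 against 11.05 and 10.95, a log2 difference of -0.08 with a 95% interval from -0.25 to 0.10. The other lay at 10.69 and 10.65 against 9.46 and 9.19, and fell by 1.35 (adjusted p = 1.30e-05). Foxm1, a transcription factor that activates late cell cycle genes, was dim, with log2 levels of 5.95 and 5.80 against 6.49 and 6.58. Its difference of 0.66 missed the threshold (adjusted p = 0.0659), 2 other single-symbol probe sets lay at 0.04 and were not called, another lay at background on all 4 arrays, and a probe set that it shares with Tex52 and Pebp1 was at -0.24. The phosphatases that activate Cdk1 did not pass either, with log2 differences of -0.24 (interval -0.52 to 0.04) for Cdc25b and 0.12 (-0.34 to 0.58) for Cdc25c.

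Spindle assembly genes were lower in 2 of 4 and higher in 0, with a median log2 difference of -0.39. All 4 lay at a mean log2 level of at least 7, where 26.9% of all genes were lower. Aurka, Aurora A, a kinase of the spindle poles, lay at log2 levels of 9.43 and 9.46 in normal and 8.47 and 8.72 in tumour, and fell by 0.85 ± 0.12 (SE, adjusted p = 0.000479). Nusap1, which bundles spindle microtubules, lay at 11.05 and 11.07 against 10.53 and 10.50 and fell by 0.54 ± 0.072 (adjusted p = 0.000429). The groups of both genes were well apart. Plk1, the Polo kinase, had higher levels on both tumour arrays (9.34 and 9.27) than on the normal ones (9.06 and 8.98), but its difference of 0.29 did not pass (adjusted p = 0.0745) and became -0.32 with scaling to spiked-in controls. For Tpx2, which activates Aurora A, the 2 bright probe sets gave log2 differences of -0.25 and 0.34, neither of which passed.

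Of the 5 genes of the spindle checkpoint, 1 was higher and 1 lower, with a median log2 difference of -0.30. Bub1, a checkpoint kinase, lay at log2 levels of 9.58 and 9.67 against 9.10 and 9.29 and differed by -0.43 ± 0.11 (SE, adjusted p = 0.0141). Its call was lost without normal replicate 1 (-0.48, adjusted p = 0.0559), normal replicate 2 (-0.38, 0.107) or tumour replicate 1 (-0.34, 0.135). Bub3, its binding partner, lay at 11.99 and 11.88 against 12.12 and 12.17, a log2 difference of 0.21 (adjusted p = 0.0362) that became -0.39 with scaling to spiked-in controls. The call on Bub3 was lost without normal replicate 2 (0.16, adjusted p = 0.164), tumour replicate 1 (0.24, 0.160) or tumour replicate 2 (0.19, 0.252), and 2 dimmer probe sets lay at -0.25 and -0.70, neither called, while 2 more lay at background on 1 tumour array. Bub1b, the checkpoint protein BubR1, did not pass on its brightest probe set (-0.31, adjusted p = 0.0743), while the next, at 8.74 and 8.72 against 7.88 and 7.96, fell by 0.81 (adjusted p = 0.000780). Mad2l1, which encodes the inhibitor Mad2, overlapped between groups, at 10.76 and 11.10 against 10.82 and 10.98, with a log2 difference of -0.03 (interval -0.28 to 0.22). Ttk, the kinase Mps1, was at -0.29 (interval -0.67 to 0.08).

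The chromosomal passenger complex joins the kinase Aurora B to 3 partners and corrects faulty microtubule attachments. On the brightest probe sets, 2 of its 4 genes were higher and 0 lower, with a median log2 difference of 0.27, but both higher genes had further probe sets called lower. Incenp, the scaffold, lay at log2 levels of 11.07 and 11.15 against 11.61 and 11.87 and was higher by 0.63 ± 0.089 (SE, adjusted p = 0.000615) on a probe set of the _x_at class, or by 0.03 (not called) with scaling to spiked-in controls. Affymetrix gives the suffix _x_at to probe sets that share sequence with other transcripts and _s_at to those whose probes match several transcripts. Of the other Incenp probe sets, which are of the plain _at class, 3 were called lower, at -0.66 (adjusted p = 0.00657), at -0.83 (0.0220), and without a settled size on the last, where tumour replicate 1 lay at background. Cdca8, which encodes borealin, was higher on 2 _s_at probe sets, by 0.52 ± 0.070 (adjusted p = 0.000453) and 0.43, or at -0.08 on the first of them with scaling to spiked-in controls. Its _at probe set lay at 8.87 and 8.76 against 8.31 on both tumour arrays and was called lower, at -0.50 (adjusted p = 0.00973). Birc5, survivin, was at -0.12 (interval -0.28 to 0.04). Aurkb, Aurora B, was at 0.01 (interval -0.26 to 0.28) on an _x_at and -0.37 on an _s_at probe set, with -0.59 for the former after scaling to spiked-in controls. No direction can be given here for Incenp and Cdca8 as genes.

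Of 10 kinetochore genes, 2 were higher and 4 lower, with a median log2 difference of -0.18. The 4 subunits of the Ndc80 complex, which grips the microtubule end, all had lower levels on both tumour arrays, and 3 of them passed. Of all genes at a mean log2 level of at least 7, 39.2% lay apart on the lower side and 26.9% were called lower. Nuf2 lay at log2 levels of 8.93 and 8.67 in normal and 7.70 on both tumour arrays, and fell by 1.09 ± 0.13 (SE, adjusted p = 0.000241). Spc25 lay at 10.15 and 10.14 against 9.35 and 9.48 and fell by 0.73 ± 0.091 (adjusted p = 0.000291). Ndc80 itself lay at 8.24 and 8.16 against 7.74 and 7.78, a log2 difference of -0.44 ± 0.13 (adjusted p = 0.0359). Leaving out any 1 array lost the Ndc80 call, with differences of -0.40 (adjusted p = 0.178) without normal replicate 1, -0.48 (0.105) without normal replicate 2, -0.42 (0.134) without tumour replicate 1 and -0.46 (0.108) without tumour replicate 2. The remaining subunit, Spc24, lay at 9.62 and 9.66 against 9.40 and 9.35, and its difference of -0.27 missed the threshold (adjusted p = 0.0662).

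Cenpe and Cenpf, large proteins of the outer kinetochore and corona, were higher. Cenpe, a kinesin-like motor that moves chromosomes to the spindle equator, lay at log2 levels of 6.95 on both normal arrays and at 8.37 and 8.26 on the tumour arrays. It rose by 1.37 ± 0.14 (SE, adjusted p = 8.88e-05), and its second probe set rose by 1.09 ± 0.20 (adjusted p = 0.00341). Cenpf lay at 8.75 on both normal arrays and at 9.71 and 9.51 on the tumour arrays, and rose by 0.86 ± 0.11 (adjusted p = 0.000292), or was at 0.26 (not called) with scaling to spiked-in controls, while a dim probe set, with a mean log2 level under 5, lay at -0.30 and was not called, and another lay at background on 1 array of each group. Cenpa, the histone H3 variant that marks the centromere, lay at 10.31 and 10.47 against 10.10 and 9.94, a log2 difference of -0.37 ± 0.094 (adjusted p = 0.0183), and fell by 1.00 on a second probe set. The Cenpa call was lost without normal replicate 2 (-0.29, adjusted p = 0.138), tumour replicate 1 (-0.45, 0.0565) or tumour replicate 2 (-0.29, 0.175). Of the inner kinetochore proteins, Cenph (0.16, interval -0.31 to 0.62), Cenpk (-0.10, -0.39 to 0.19) and Cenpn (-0.01, -0.40 to 0.38) overlapped between groups on their brightest probe sets, and an _s_at probe set of Cenpn was called lower at -0.70 (adjusted p = 0.00876).

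**Figure D3:**
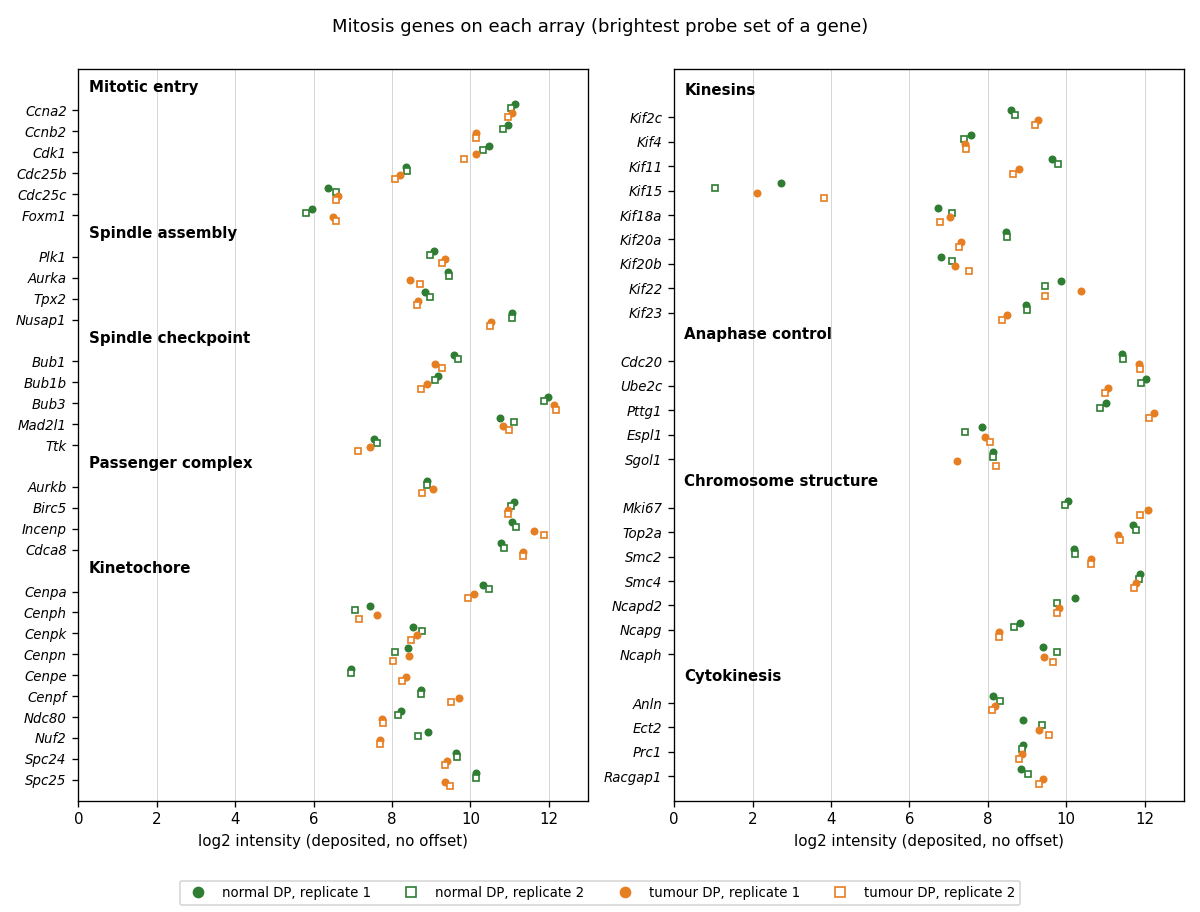
Log2 intensity of the brightest probe set of each mitosis gene on each of the 4 arrays, by function (filled circles replicate 1, open squares replicate 2). For Mki67, Cenpe and Pttg1 both tumour arrays lie to the right of both normal arrays, and for Nuf2, Kif11, Kif20a and Ube2c to the left; levels of different genes are not comparable.

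Kinesins are motors that walk along or take apart microtubules. Of 9 mitotic kinesins, 1 was higher and 3 lower, with a median log2 difference of -0.004. Kif20a, a cytokinesis motor of the midzone, showed the lowest value among all 54 genes, with log2 levels of 8.47 and 8.49 in normal and 7.32 and 7.26 in tumour. It fell by 1.19 ± 0.13 (SE, adjusted p = 0.000129). Kif11, the motor Eg5 that pushes the spindle poles apart, lay at 9.65 and 9.80 against 8.80 and 8.65 and fell by 1.00 ± 0.11 (adjusted p = 0.000109). A second Kif11 probe set was called lower too, at -0.46 (adjusted p = 0.0485), and a dimmer one was at 0.30 and not called. Kif23, the motor part of centralspindlin, lay at 8.99 on both normal arrays and at 8.49 and 8.35 on the tumour arrays, and fell by 0.57 ± 0.11 (adjusted p = 0.00459). A dimmer probe set was called lower too, but lay at background on tumour replicate 1, so its size is not given. Without tumour replicate 2 the Kif23 call was lost (-0.50, adjusted p = 0.0534).

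Kif2c, the microtubule-dismantling kinesin MCAK, gave opposite calls. An _x_at probe set was higher by 0.60 ± 0.11 (SE, adjusted p = 0.00257), or at -0.005 with scaling to spiked-in controls. An _at probe set, at log2 levels of 7.27 and 7.18 against 6.65 and 6.36, was lower at -0.72 (adjusted p = 0.0216). Kif22, a chromosome-arm motor, rested on an _x_at probe set with unequal tumour arrays (10.38 and 9.47), and its difference of 0.26 (interval -0.29 to 0.82) became -0.19 without tumour replicate 1 and 0.72 (adjusted p = 0.0475) without tumour replicate 2. Its _s_at probe set was called lower at -0.41 (adjusted p = 0.0283). The remaining kinesins were not called: Kif20b at 0.40 (interval -0.03 to 0.84), Kif4 at -0.04 (-0.39 to 0.30) and Kif18a at -0.004 (-0.46 to 0.46). Kif15 lay at background on both normal arrays and 1 tumour array, so no fold is given.

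Anaphase genes were higher in 2 of 5 and lower in 1, with a median log2 difference of 0.35. Pttg1, securin, which holds the protease separase in check, lay at log2 levels of 11.03 and 10.88 in normal and 12.24 and 12.11 in tumour. It rose by 1.22 ± 0.077 (SE, adjusted p = 4.01e-06), a 2.33-fold difference, on an _s_at probe set. Its _a_at probe set, whose probes all match transcripts of the same gene, was at 0.35 and missed the threshold (adjusted p = 0.0709), and a dim _at probe set lay at background on both tumour arrays and was not called. Ube2c, the ubiquitin-conjugating enzyme of the APC/C, went the other way. Its only probe set lay at 12.03 and 11.91 against 11.07 and 10.98 and fell by 0.94 ± 0.071 (adjusted p = 1.13e-05), a 1.92-fold difference. Cdc20, the APC/C activator, was higher by 0.44 (adjusted p = 0.000544) on an _x_at probe set, or at -0.16 with scaling to spiked-in controls. On its _at probe set Cdc20 lay at 10.39 and 10.32 against 9.53 and 9.52 and was lower, at -0.83 (adjusted p = 7.87e-05). Espl1, separase, was at 0.35 (interval -0.03 to 0.72). Sgol1, shugoshin, the guardian of centromeric cohesion, had unequal tumour arrays (7.21 and 8.22) on its brightest probe set and was not called there (-0.42, interval -1.02 to 0.18), while its second probe set was called higher at 0.68 (adjusted p = 0.0125).

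The genes of chromosome structure held the largest rise of all 54. Mki67, the proliferation marker Ki-67 that coats mitotic chromosomes, lay at log2 levels of 10.06 and 9.96 in normal and 12.08 and 11.87 in tumour. It rose by 1.97 ± 0.086 (SE, adjusted p = 4.89e-07), a 3.91-fold difference, on its only probe set. In the same arrays Top2a, topoisomerase II alpha, which untangles chromosomes and is also a proliferation marker, lay at 11.69 and 11.79 against 11.31 and 11.37. Top2a fell by 0.40 ± 0.067 (adjusted p = 0.00179) and by 0.83 (adjusted p = 0.00502) on a second probe set. Of the condensin genes, Smc2 rose by 0.42 ± 0.077 (adjusted p = 0.00309), with log2 levels of 10.20 and 10.23 against 10.63 on both tumour arrays, or was at -0.18 with scaling to spiked-in controls. Ncapg, at 8.82 and 8.67 against 8.29 and 8.28, was lower at -0.46 ± 0.12 (adjusted p = 0.0184). The Ncapg call was lost without normal replicate 1 (-0.38, adjusted p = 0.138), tumour replicate 1 (-0.47, 0.0903) or tumour replicate 2 (-0.45, 0.0994). Smc4, the partner of Smc2, was at -0.12 (interval -0.25 to 0.02) on its brightest of 3 probe sets and called lower on another, at -0.25 (adjusted p = 0.0438). Ncapd2 (-0.19, interval -0.50 to 0.11) and Ncaph (-0.05, -0.34 to 0.25) were not called. Over the 7 genes, 2 were higher and 2 lower, with a median of -0.12.

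Of the 4 cytokinesis genes, 1 was higher and 0 lower on the brightest probe sets, with a median log2 difference of 0.12. Racgap1, the partner of Kif23 in centralspindlin, lay at log2 levels of 8.85 and 9.02 against 9.40 and 9.30, and was higher by 0.41 ± 0.11 (SE, adjusted p = 0.0214), or at -0.19 with scaling to spiked-in controls. A second Racgap1 probe set of the same _a_at class, at 9.17 and 9.20 against 8.12 and 8.32, was lower at -0.97 (adjusted p = 0.000230). The higher call was lost without normal replicate 1 (0.33, adjusted p = 0.144), tumour replicate 1 (0.36, 0.161) or tumour replicate 2 (0.46, 0.0797), so Racgap1 has no settled direction. Ect2 (0.29, interval -0.06 to 0.65), which activates the GTPase RhoA at the division plane, Prc1 (-0.06, -0.29 to 0.18), which bundles midzone microtubules, and Anln (-0.09, -0.39 to 0.20), the ring protein anillin, were not called.

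The probe sets of a gene often differed from each other, in part along their class. In 5 of the 37 mitosis genes read by at least 2 probe sets, these were called in opposite directions (Incenp, Cdca8, Kif2c, Cdc20 and Racgap1). The same share over all genes was not counted, so this cannot be called particular to mitosis genes. At a mean log2 level of at least 7, the _at and _a_at probe sets of mitosis genes were higher in 6 and lower in 24 of 57 (42.1%), with a median log2 difference of -0.25. The _s_at and _x_at probe sets were higher in 7 and lower in 2 of 16, with a median of 0.24. All probe sets at that level showed the same split with smaller medians, with 25.8% higher and 31.9% lower (median -0.06) in the first classes and 43.4% higher and 18.1% lower (median 0.22) in the others. In 8 of 11 mitosis genes with both kinds, the _s_at or _x_at probe set lay above the _at or _a_at one, by a median of 0.50, against 668 of 912 genes (73.2%) and a median of 0.34 over all genes. The split was therefore near the background of these arrays. Cenpn, Smc2 and Prc1 ran against it, and Racgap1 and Ccna2 differed between probe sets of 1 class. The ratio of 3′ to 5′ probe sets of beta-actin was 1.24 ± 0.056 (SD, n = 2) in normal and 2.49 ± 0.050 (SD, n = 2) in tumour, and that of Gapdh 0.905 ± 0.011 and 1.85 ± 0.006, so both control genes had relatively less 5′ signal on the tumour arrays. Its part in the differences between probe sets was not tested. Without the _s_at and _x_at classes, 5 mitosis genes were higher and 20 lower (37.7%) of 53, against 14.9% and 12.4% of all genes, and the median difference was -0.25 against 0.06 over all genes.

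**Figure D4:**
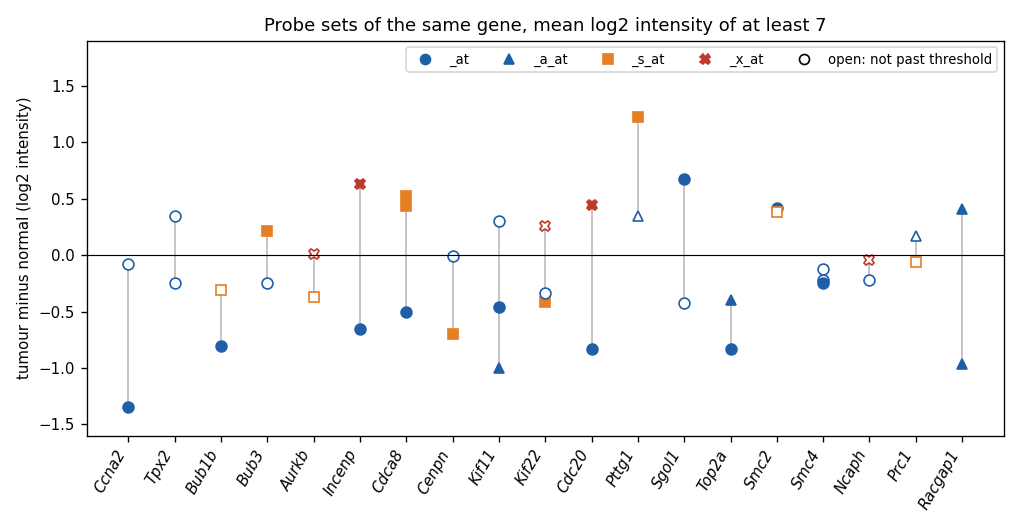
Log2 difference (tumour minus normal DP) of the probe sets with a mean log2 intensity of 7 or more, for the mitosis genes with at least 2 of them, marked by class (shape and colour) and call (filled past the threshold). Incenp, Cdca8, Cdc20 and Racgap1 have called probe sets on both sides of 0, while scaling to spiked-in controls moves every point by -0.60.

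Further genes of the same processes were taken from lists written by hand with earlier results of these data known. Their shares stand beside 16.3% higher and 11.7% lower of all genes, or 30.6% and 26.9% at a mean log2 level of at least 7. The APC/C and its regulators held 9 lower and 0 higher genes of 15, with a median log2 difference of -0.45, against 26.9% lower and a median of 0.035 over all genes at a mean log2 level of 7 or more, where all 15 lay. Among them, Fzr1, the late activator Cdh1, was at -0.99 (adjusted p = 0.00163), with log2 levels of 7.85 and 7.91 against 7.02 and 6.76. Anapc11, the catalytic RING subunit, was at -0.88 (adjusted p = 0.00271), and Fbxo5, the inhibitor Emi1, at -0.73 (adjusted p = 0.000109), so genes for an activator, a subunit and an inhibitor were lower together. Further kinetochore genes were higher in 3 and lower in 8 of 28 (median -0.14), with Zw10, a checkpoint protein of the corona, at -1.09, Cenpl at -1.06 and Cenps at 0.95. Kinesins outside the list were higher in 0 and lower in 1 of 11 (median -0.19), the cargo motor Kif5b at -0.46. Spindle and centrosome genes were higher in 5 and lower in 3 of 22 (median 0.02). Bora, an Aurora A cofactor, was at -1.36, Tubg1, gamma-tubulin, at -1.16 and the spindle pole protein Numa1 at 1.06 on an _s_at probe set.

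Other cell cycle regulators were higher in 6 and lower in 4 of 17 (median 0.06), with Melk at 0.99, Cdca2 at 0.92 and the Cdk-binding subunit Cks1b at 0.81. Cohesin and condensin genes were higher in 4 and lower in 1 of 17 (median 0.09), with the cohesin loader Mau2 at 1.17, the subunit Stag2 at -0.56 and Pds5b at 0.46, or below 0 once the 0.60 of the spiked-in controls is taken off. The factors that act on the promoter elements above (DREAM, MuvB, E2F and NF-Y) were higher in 5 and lower in 5 of 20 (median -0.05). Of these, E2f3 rose by 1.46 (adjusted p = 0.000174), while Rb1, which encodes the retinoblastoma protein, fell by 1.30 (adjusted p = 1.80e-05) and its relative Rbl2, the p130 subunit of DREAM, fell by 1.28 (adjusted p = 2.40e-05). DNA replication genes were higher in 9 and lower in 5 of 28 (median 0.18), or in 9 (36%) and 4 (16%) of the 25 at a mean log2 level of at least 7. Among the higher ones were the helicase subunits Mcm2 at 1.74 and Mcm3 at 0.89, both on _s_at probe sets, and the initiation factor Mcm10 at 0.85. Over the mitotic and regulatory lists without the replication genes, 23 of 130 were higher and 31 lower, with a median of -0.05, and at that level 23 (21.3%) and 28 (25.9%) of 108, near the background for lower calls.

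**Figure D5:**
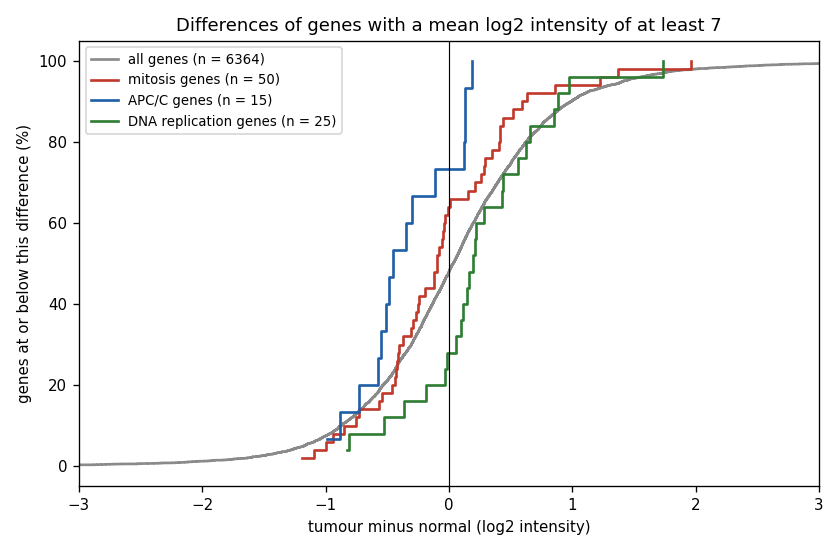
Cumulative share of genes (percent) by log2 difference (tumour minus normal DP) for all 6364 genes with a mean log2 intensity of 7 or more and, among them, 50 mitosis genes, 15 APC/C genes and 25 DNA replication genes. The median is -0.10 for the mitosis genes, -0.45 for the APC/C genes and 0.035 for all genes at that level; genes of a line are not independent of each other.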

How the data were processed

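Biotin-labelled cRNA made from 100 ng of total DP cell RNA was read on Affymetrix Mouse 430 2.0 arrays, per the labels' protocols. For each probe set and array the authors deposited 1 linear intensity. The submitters' processing notes name RMA without a version, and values below 1 are unusual for it, so the probe summary is not settled. The deposited arrays share nearly the same distribution, which would hide any shift common to all genes. The number of arrays limits the precision.

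Log2 was taken with no offset and no filter. Differences were tested with limma 3.58.1 in R 4.3.3 (lmFit, then eBayes with trend and robust prior) over 45037 probe sets that are not controls, without covariates, with Benjamini-Hochberg adjustment over all of them at 0.05. The fit had 2 residual degrees of freedom, to which the prior added a median of 7.27. Replicate SDs were strongly level-dependent (median 1.31 in the dimmest and 0.102 in the brightest 25%), which the trend follows. Data were simulated with normal noise whose SD followed the level alone, as the trend prior assumes. At mean log2 levels of at least 7, 100 of 45037 probe sets were changed by each size. The trend and robust prior recovered 46% of changes of 0.5 and 96% of changes of 1 (log2), with 13 false calls, and the default prior 0% of both. This setting favours the trend prior, so the recovery does not rank the priors. An exact permutation test of 2 against 2 cannot go below p = 0.333 (two-sided).

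The background level was the highest of 27 bacterial control probe sets per array, 12.3 to 17.8. Probe sets were named from the platform annotation, and Sgol1 was matched as Sgo1. All member genes are named, and of each related list up to 3 called genes with the largest difference, a log2 level of 7 or more in the brighter group and no _x_at probe set. The members and lists were chosen with earlier results of these data known. Alternatives covered the prior, unit, scaling, filters, offset, probe set class, gene summary, threshold, replicate block and leaving out each array.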

Additional observations from a re-analysis of the deposited data

How the results depend on the processing

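The counts below are of mitosis genes, or of their probe sets where stated. With the default variance prior 0 probe sets and 0 genes were called higher or lower, and the log2 difference of Notch1, 2.62, had an adjusted p of 0.0684 (limma); with that prior and 1 probe set per gene, 2 were higher and 1 lower. Scaling to spiked-in controls gave 3 probe sets higher and 64 lower, 3 genes higher and 35 lower, and a median log2 difference of -0.67 (all genes -0.51). The share of all genes called under this scaling was not counted. Among genes called with or without this scaling, the sign turned for Plk1 (-0.32), Bub3 (-0.39), Aurkb (-0.59) and Cdca8 (-0.082). It also turned for Kif2c (-0.005), Cdc20 (-0.16), Smc2 (-0.18) and Racgap1 (-0.19). Genes called under neither setting that changed sign as well are not listed. Without the _s_at and _x_at classes, 7 probe sets and 5 genes were higher, 20 genes lower and the median was -0.25, with Bub3 at -0.25, Incenp at -0.66, Cdca8 at -0.50, Kif2c at -0.72 and Cdc20 at -0.83. Without the _x_at class alone, chosen after seeing the data, the median was -0.23, and Incenp was at -0.66, Kif2c at -0.72, Kif22 at -0.41 and Cdc20 at -0.83. With probe sets averaged per gene, 2 genes were higher and 10 lower and the median was -0.17, with Bub3 at -0.47, Incenp at -0.48, Cdc20 at -0.016 and Pttg1 at -0.36, a mean that includes a probe set at background on both tumour arrays. At an adjusted p of 0.01, 18 probe sets were lower, and with a fold of at least 2, 4 probe sets and 3 genes were higher and 5 probe sets and 2 genes lower. The causes of these shifts were not tested beyond what the settings themselves change.

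Leaving out 1 array at a time, 10 to 13 probe sets were higher and 17 to 22 lower (17 without normal replicate 1, 20 without normal replicate 2), 9 to 10 genes were higher and 11 to 12 lower, the median was -0.13 to -0.056 (-0.10 without normal replicate 1 and -0.13 without tumour replicate 1), and 19 to 21 of the 26 called genes kept their call. Samples share only a replicate number. The replicate 1 arrays' deviations from their group means correlated at 0.25 over the 10772 probe sets averaging log2 7 or more. With 2 arrays per group the replicate 2 deviations only mirror these, so the correlation does not establish a pairing. With the replicate block, 21 probe sets were higher and 37 lower, 15 genes higher and 17 lower, the median was -0.07, and all 26 calls were kept. Median scaling, renewed quantile normalization, both filters on dim probe sets, the offset and the fit by gene also kept all 26. Of 1024 values of single genes under the alternatives, 35 (17 genes) changed sign while called under neither setting.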
